A study of Mus musculus with 6 samples.

Results

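The proteasome subunit genes were taken from the deposited table of 54532 genes by symbol. Protein-coding genes named Psma, Psmb, Psmc or Psmd with a number were kept, and the immunoproteasome genes *Psmb8*, *Psmb9* and *Psmb10* were set apart, which left 37 genes. Of these, 16 code for the 20S core and 17 for the 19S cap. The other 4 are the 19S assembly chaperones *Psmd5*, *Psmd9* and *Psmd10*, and *Psmc3ip*, a partner of meiotic recombinases that shares only the spelling of the symbol. A further 4 genes with a matching symbol were not protein-coding and were left out.

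The proteasome degrades proteins tagged with ubiquitin. Its barrel, the 20S core, stacks outer alpha rings, which gate the entrance, on inner beta rings, which hold the catalytic threonines of *Psmb5*, *Psmb6* and *Psmb7*. The 19S cap binds the tagged protein, removes the ubiquitin in its lid and unfolds the chain with a ring of ATPases in its base. Transcription of most subunits is raised together by NFE2L1 when proteasome capacity is short, and in the kidney tubule, as elsewhere, the particle turns over short-lived and damaged proteins.

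RNA was sequenced from whole kidneys of male mice of C57BL/6 background, and the 2 groups differed in the TRE-Adiponectin transgene. Controls carried KsprtTA, a tetracycline-dependent activator expressed in the tubular epithelium from proximal tubule to collecting duct, and the sample labels call their genotype WT. KSPAPN mice carried KsprtTA and TRE-Adiponectin, so that doxycycline induced the secreted hormone adiponectin in the same cells. Both groups ate chow with doxycycline at 600 mg/kg for 4 days, and their age is not given in the sources used here.

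Each group had 3 libraries, and each library was a pool of 3 mice, so that replicate error below is that of pools. Counts on genes were 17183358 to 18205023 per Control library and 18150442 to 20871173 per KSPAPN library. *Adipoq*, which codes for adiponectin, had 2, 0 and 2 counts in the Control libraries and 24629, 17483 and 26811 counts in the KSPAPN libraries. The labels' text on extraction speaks of liver, but *Cyp3a11* and *Cps1* of hepatocytes had at most 0.0947 and 0.269 FPKM in any library. Both had 0 counts in every Control library and at most 10 and 31 counts in a KSPAPN library. *Alb*, another hepatocyte gene, had 0.275 to 4.46 FPKM. The proximal tubule transporter *Slc34a1* had 980.2 to 1368 FPKM. In such whole-organ RNA, fewer cells of a type and less RNA per cell cannot be told apart.

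Levels below are FPKM, reads scaled by gene length and library size as the authors computed them. Differences are log2 fold changes of KSPAPN over Control from counts, fitted in edgeR across 16017 genes with the p adjusted over all of them. Libraries were scaled by TMM factors, which assume that most genes do not differ, unless another scaling is named. No proteasome gene passed an adjusted p of 0.05 in edgeR in either direction, while 2.25% of all genes passed it as lower and 0.393% as higher in KSPAPN. At an unadjusted p under 0.05, 6 of 35 members tested (17.1%) were lower, against 11.2% of all genes, and 0 were higher, against 7.52%. DESeq2 called *Psmb5* and *Psmd3* lower at an adjusted p of 0.0357 and 0.0249, which is 5.71% of the members against 4.76% of all genes. Without KSPAPN replicate 1, edgeR called 3 members lower (*Psmb4*, *Psmb5* and *Psmd3*, adjusted p = 0.0341, 0.0116 and 0.0447), or 8.57% against 3.47% of all genes. Without KSPAPN replicate 3, 3 members were lower at an unadjusted p under 0.05, or 8.57% against 8.67% of all genes.

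Most members had the same sign, but how many depended on the scaling. Of the 35 tested, 30 had a log2 fold change below 0 with TMM, compared with 48.1% of all genes tested, while 24 were below 0 with scaling by total counts alone and 19 after a correction for GC content and length. The median was -0.11 over the members and 0.01 over all genes. The median of all genes was 0.08 with total counts and 0.04 after the correction, so counts below 0 are not on the same footing. Relative to the median of all genes, the member median stood at -0.12 with TMM, -0.12 with total counts and -0.08 after the correction. In 11 of them (31.4%) every KSPAPN library lay below every Control library in FPKM, compared with 13.5% of all genes. In none did every KSPAPN library lie above every Control library, compared with 10.8% of all genes. These shares describe genes that are made together in the same pools and are not independent of each other.

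**Figure D1:**
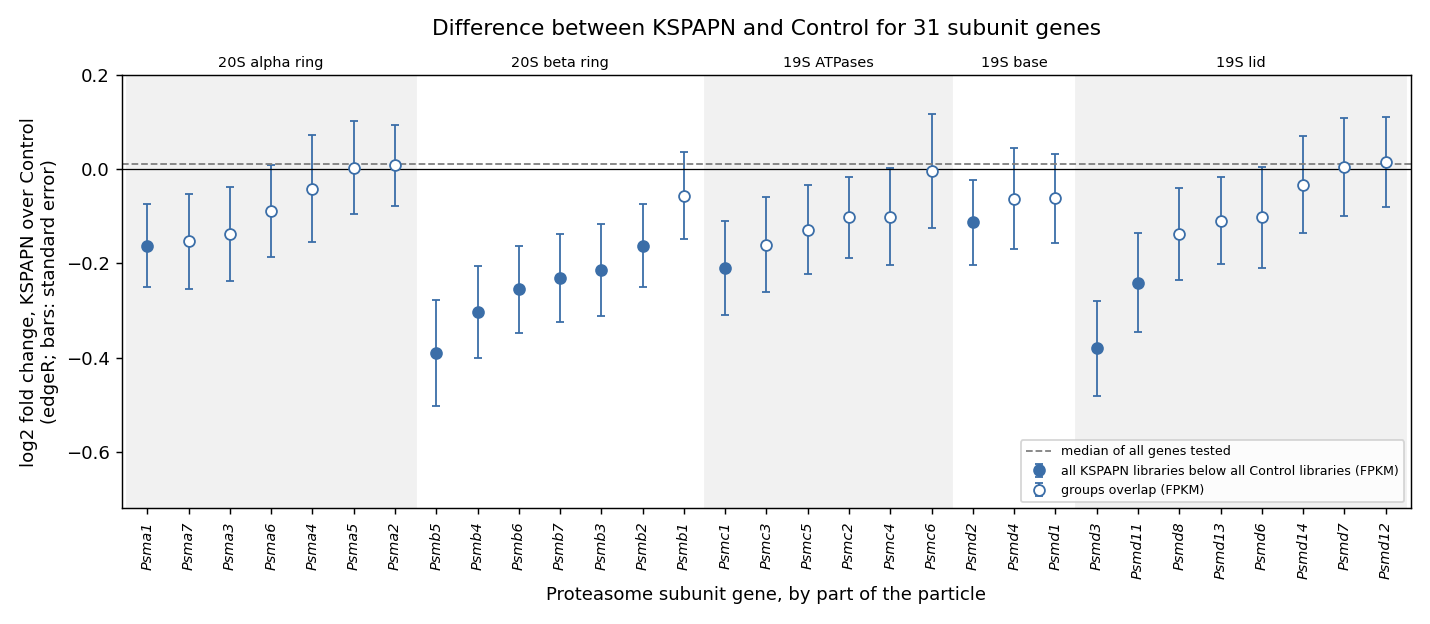
log2 fold change of KSPAPN over Control (vertical axis, edgeR, bars are the standard error) for the 31 core and cap genes tested, grouped by part of the particle and ordered by size within it. Filled points mark the 11 genes whose 3 KSPAPN libraries all lay below the 3 Control libraries in FPKM, 6 of them in the beta ring, and the dashed line marks the median of all genes tested at 0.01. Of the 31, 27 are below 0 here, 21 with scaling by total counts and 16 after the GC and length correction.

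The median was lower in the beta ring than in the alpha ring, a difference that was not tested. All 7 beta ring genes tested were below 0 (6 with total counts, 5 after the GC and length correction), with a median log2 fold change of -0.23. In 6 of the 7 (85.7%) all KSPAPN libraries lay below all Control libraries in FPKM, against 13.5% of all genes. Of the 7 alpha ring genes, 5 were below 0 (4 with total counts, 3 after the correction, where the median was 0.02), and the median was -0.09. The groups did not overlap for *Psma1* (14.3% of the alpha ring genes tested). Over the 14 core genes tested the median was -0.16, and it was -0.10 without Control replicate 2. Of the 6 members with an unadjusted p under 0.05, 4 were beta ring genes. These 4 are 57.1% of the beta ring genes tested, against 11.2% of all genes as lower. After the GC and length correction, 1 of the 7 beta ring genes was lower at an unadjusted p under 0.05 in edgeR, against 9.16% of all genes.

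*Psmb5*, the chymotrypsin-like catalytic subunit and the target of the drug bortezomib, was the most abundant member. The gene (ENSMUSG00000022193) lies on the minus strand of chromosome 14, from 54614119 to 54618022 in GRCm38 (GENCODE M21). It had 143, 142 and 141 FPKM in the Control libraries and 126, 99.9 and 96.9 FPKM in the KSPAPN libraries. The Control libraries lay within 2 FPKM of each other and all above the KSPAPN libraries, which were spread more widely, with KSPAPN replicate 1 nearest to Control. The log2 fold change was -0.39 with a standard error of 0.11, or 0.763 times the Control level (edgeR, adjusted p = 0.0981). Part of its sequence is not unique, since 24.9% of the 100-base stretches of its longest transcript also occur in another gene.

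*Psmb6* carries the caspase-like site. Its level was 59.5, 53.5 and 51.5 FPKM in Control and 48.2, 45.3 and 43.6 FPKM in KSPAPN, with no overlap between the groups. The log2 fold change was -0.26 with a standard error of 0.09 (edgeR, adjusted p = 0.175). After the GC and length correction it was -0.06 (edgeR, unadjusted p = 0.464).

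The promoters of *Psmb5* and *Psmb6* are shown because both genes were among the lowest core members and both promoters hold a match to the antioxidant response element, the element that NFE2L1 and NFE2L2 bind. The stretches are the 150 bases before the annotated start of transcription in RefSeq (GRCm38.p6), written 5′ to 3′ on the strand of the gene, with the match to TGACNNNGC in capitals. For *Psmb5* the stretch is chr14:54617996-54618145 on the minus strand, whose last bases lie inside the gene as GENCODE draws it, and for *Psmb6* it is chr11:70525207-70525356 on the plus strand.
Psmb5: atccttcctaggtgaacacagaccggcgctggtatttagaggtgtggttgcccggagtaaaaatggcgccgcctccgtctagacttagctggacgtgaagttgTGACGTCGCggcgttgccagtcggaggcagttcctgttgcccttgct
Psmb6: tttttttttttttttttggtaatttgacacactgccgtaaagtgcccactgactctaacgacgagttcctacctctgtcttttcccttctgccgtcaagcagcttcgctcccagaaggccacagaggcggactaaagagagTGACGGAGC
The match began at position -47 in *Psmb5* and -9 in *Psmb6*, with the annotated start at 0.

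Of the 33 core and cap genes, 26 had a RefSeq window of 250 bases before to 50 after the start, in 28 windows. The element TGACNNNGC, searched on both strands, was in 4 of 28 windows (14.3%) and in 12.4% of all 32851 mouse windows. Beside *Psmb5* and *Psmb6* these were *Psmc6* and *Psmd12*, which were 2 of the 3 cap genes with the highest log2 fold change. The window of *Psmb4*, which lay between *Psmb5* and *Psmb6* in log2 fold change, held no match. The box CCAAT was in 39.3% of the core and cap windows and 37.4% of all, and GGGCGG, the GC box, in 53.6% and 35.7%. CGCATGCG was in 1 window, that of *Psma2*. A match is a description of letters and not of binding.

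*Psmb7* carries the trypsin-like site and was the least abundant core gene tested. The Control libraries had 21.3, 23.7 and 22.3 FPKM and the KSPAPN libraries 20.5, 18.5 and 18.1 FPKM, so the groups were apart by less than 1 FPKM. The log2 fold change was -0.23 with a standard error of 0.09 (edgeR, adjusted p = 0.217). In the annotation, 11.8% of its exonic bases overlap the neighbouring gene *Nek6*.

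*Psmb4* has no active site and is among the last subunits to join the ring during assembly. It had 76.1, 74.7 and 72.4 FPKM in Control and 66.9, 57.0 and 56.1 FPKM in KSPAPN. As for *Psmb5*, the Control libraries were close together and KSPAPN replicate 1 was the nearest of its group to them. The log2 fold change was -0.30 with a standard error of 0.10 (edgeR, adjusted p = 0.130), and -0.12 after the GC and length correction (edgeR, unadjusted p = 0.189). The remaining beta genes *Psmb1*, *Psmb2* and *Psmb3* had log2 fold changes of -0.06, -0.16 and -0.21.

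**Figure D2:**
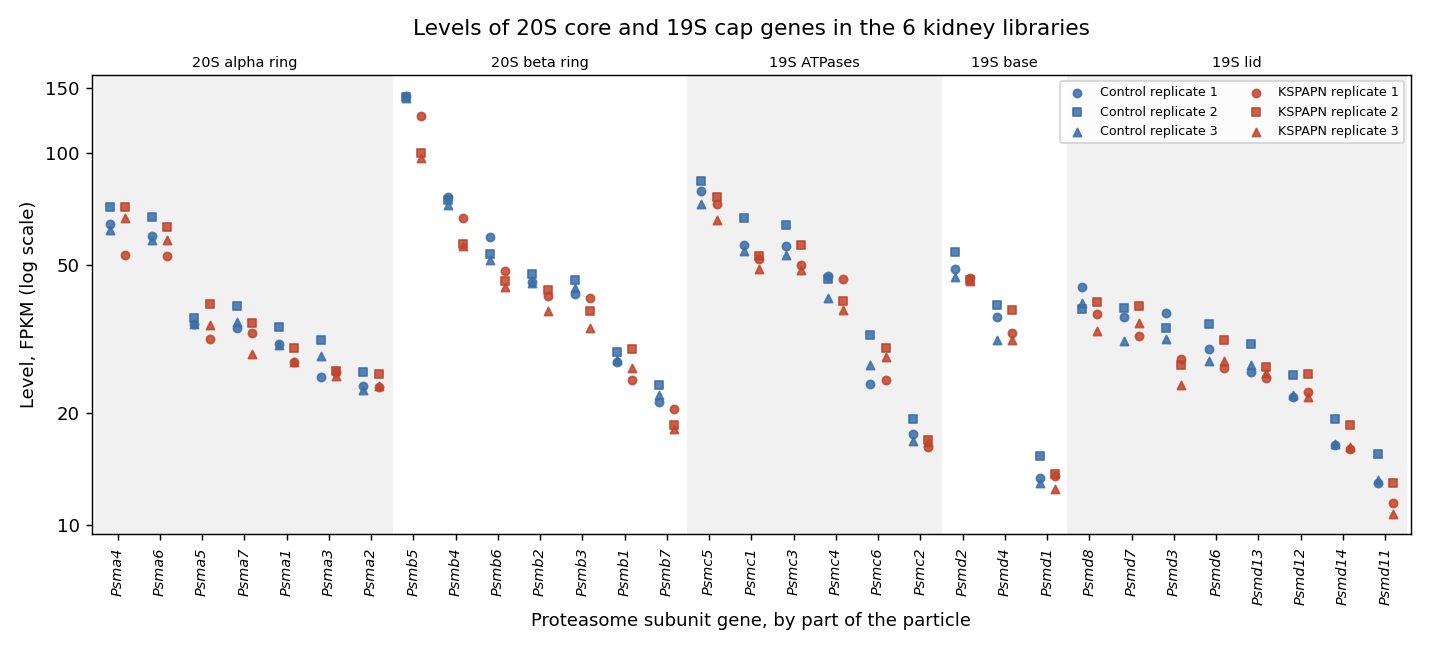
FPKM (vertical axis, log scale) of the 31 core and cap genes tested in each of the 6 libraries, grouped by part of the particle and ordered by mean level. The circle, square and triangle stand for replicates 1, 2 and 3, and *Psmb5* stands above the rest at 96.9 to 143 FPKM while *Psmd11* is lowest at 10.7 to 15.5 FPKM.

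The alpha ring genes with the highest log2 fold changes overlapped with Control. *Psma2* had 23.6, 25.7 and 23.0 FPKM in Control and 23.4, 25.4 and 23.6 FPKM in KSPAPN, a log2 fold change of 0.01 with a standard error of 0.09 (edgeR, adjusted p = 0.977). *Psma5* had 34.7, 35.9 and 34.7 FPKM in Control and 31.5, 39.3 and 34.5 FPKM in KSPAPN. *Psma4* had 64.4, 71.6 and 62.1 FPKM in Control and 53.3, 71.6 and 67.0 FPKM in KSPAPN, with KSPAPN replicate 1 the lowest of the 6 libraries for both genes. The groups overlapped for all 3 genes. *Psma5* also shares 27.5% of its 100-base stretches with another gene.

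The rings differed in how the libraries were ordered. Within each group, replicate 2 was the highest of its 3 libraries for all 7 alpha ring genes, in Control and in KSPAPN alike. In the beta ring, replicate 2 was the highest for 4 of 7 genes in Control and for 2 of 7 in KSPAPN, and KSPAPN replicate 3 was the lowest of its group for 6 of 7. Replicate 2 was also the highest for 14 of 17 cap genes in each group. The alpha ring and the cap thus had the same library at the top of each group.

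Summed over its 7 genes, the alpha ring had 272, 305 and 272 FPKM in Control and 247, 290.5 and 265 FPKM in KSPAPN. The means were 283 ± 18.98 and 267 ± 21.9 FPKM (SD, n = 3), and the groups overlapped. The beta ring had 414, 415 and 403 FPKM in Control and 368, 331 and 313 FPKM in KSPAPN. Its means were 411 ± 6.52 and 337 ± 28.2 FPKM (SD, n = 3), without overlap. The gap of 35.2 FPKM between the closest libraries of the groups was larger than the SD of either group. Single genes weigh heavily in this sum. *Psmb5* alone made up 142 FPKM of the Control mean and 108 FPKM of the KSPAPN mean, and *Psmb4* 74.4 and 60.0 FPKM.

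The ratio of the beta to the alpha sum was 1.52, 1.36 and 1.48 in Control and 1.49, 1.14 and 1.18 in KSPAPN. KSPAPN replicate 1 lay within the Control range, and the other 2 KSPAPN libraries lay below all Control libraries. The means of the ratio were 1.45 ± 0.0827 and 1.27 ± 0.192 (SD, n = 3), so this difference in balance rested on 2 of 3 pools. The sums are descriptions of members chosen with earlier results known, and no test was made on them.

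**Figure D3:**
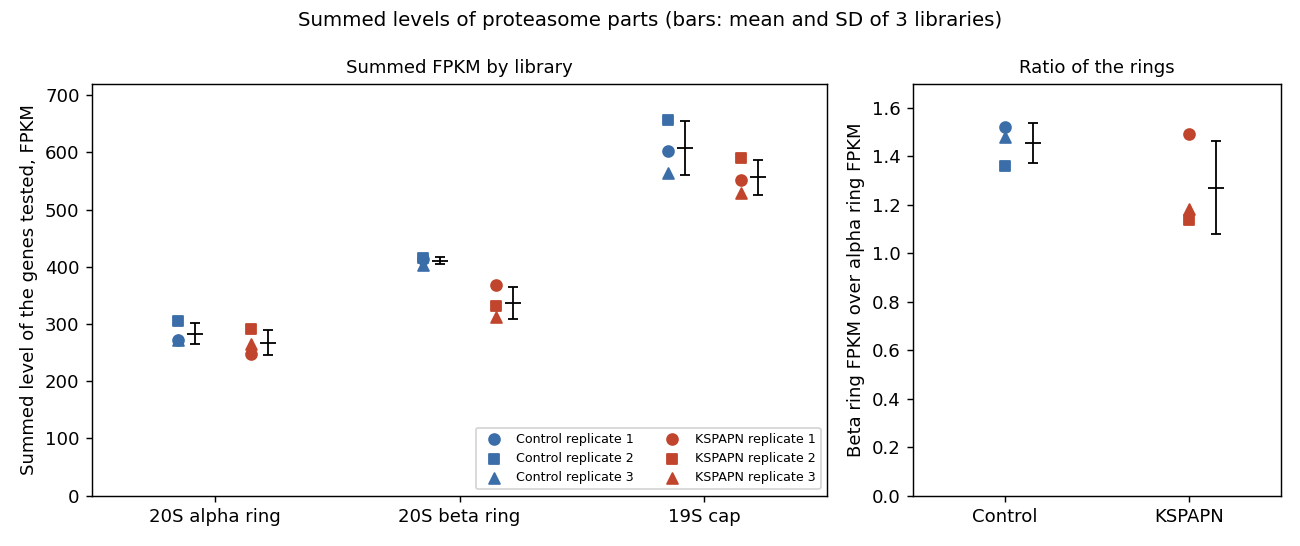
Left, summed FPKM of the 7 alpha ring, 7 beta ring and 17 cap genes tested in each library, with the mean and SD of each group of 3 beside the points. Right, the beta sum over the alpha sum. The beta ring sums of the groups do not overlap (403 to 415 against 313 to 368 FPKM), the alpha ring and cap sums do, and KSPAPN replicate 1 has a ratio of 1.49, inside the Control range.

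In the 19S cap, 15 of 17 genes were below 0 (11 with total counts, 8 after the GC and length correction), the median log2 fold change was -0.10, and 2 lid genes (11.8% of the cap) had an unadjusted p under 0.05, against 11.2% of all genes as lower. Without Control replicate 2, the library with the highest cap sum, the median was -0.05. The cap sums were 602, 657 and 564 FPKM in Control and 551, 589 and 529 FPKM in KSPAPN, and the groups overlapped. Of the cap genes, 4 (23.5%, against 13.5% of all genes) had all KSPAPN libraries below Control, namely *Psmc1*, *Psmd2*, *Psmd3* and *Psmd11*.

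*Psmd3*, a scaffold of the lid, had the lowest adjusted p of all members. The gene (ENSMUSG00000017221) lies on the plus strand of chromosome 11, from 98682554 to 98695979 in GRCm38. It had 37.2, 33.8 and 31.5 FPKM in Control and 27.9, 26.8 and 23.7 FPKM in KSPAPN, and every KSPAPN library lay below the lowest Control library by more than 3 FPKM. The log2 fold change was -0.38 with a standard error of 0.10, or 0.769 times the Control level (edgeR, adjusted p = 0.0796). None of its 100-base stretches occur in another gene.

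*Psmd11*, the lid subunit that clamps the base to the core and limits how many capped particles form, was the least abundant cap gene. It had 12.9, 15.5 and 13.2 FPKM in Control and 11.5, 12.9 and 10.7 FPKM in KSPAPN. The highest KSPAPN and the lowest Control library were equal to 3 digits, so the separation of the groups is nominal. The log2 fold change was -0.24 with a standard error of 0.11 (edgeR, adjusted p = 0.25).

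The other lid genes ranged in log2 fold change from -0.14 for *Psmd8* to 0.02 for *Psmd12*. *Psmd12* had 22, 25.3 and 22.3 FPKM in Control and 22.7, 25.4 and 22 FPKM in KSPAPN. *Psmd7*, the inactive partner of the deubiquitinase *Psmd14*, had 36.2, 38.3 and 31.3 FPKM in Control and 32.1, 38.6 and 35.0 FPKM in KSPAPN, a log2 fold change of 0.0049. The groups overlapped for both genes. *Psmd14* itself, the enzyme that removes the ubiquitin chain, had a log2 fold change of -0.03 with a standard error of 0.10 (edgeR, adjusted p = 0.897).

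All 6 ATPases of the base were below 0 with TMM, 5 with total counts and 3 after the GC and length correction, and their median was -0.12 with TMM. *Psmc1*, whose tail helps to open the gate of the alpha ring, had the lowest value. It had 56.6, 67.0 and 54.4 FPKM in Control and 51.7, 52.7 and 48.8 FPKM in KSPAPN, a log2 fold change of -0.21 with a standard error of 0.10 (edgeR, adjusted p = 0.290). *Psmc6* was at the other end, with 23.9, 32.4 and 26.9 FPKM in Control and 24.5, 29.9 and 28.3 FPKM in KSPAPN. The scaffolds *Psmd1* and *Psmd2* and the ubiquitin receptor *Psmd4* had log2 fold changes of -0.06, -0.11 and -0.06. None of these 9 base genes had an unadjusted p under 0.05.

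Of the assembly chaperones, *Psmd10* (gankyrin) had the highest log2 fold change of any member, 0.18 with a standard error of 0.13 (edgeR, adjusted p = 0.489). It had 11.6, 14.99 and 13.4 FPKM in Control and 14.4, 15.01 and 15.9 FPKM in KSPAPN, and the groups overlapped only through Control replicate 2. *Psmd9* had 4.52, 4.10 and 3.92 FPKM in Control and 4.17, 3.60 and 3.50 FPKM in KSPAPN, and 25.5% of its exonic bases overlap another gene on the opposite strand. *Psmd5* had 7.25, 8.01 and 6.41 FPKM in Control and 6.83, 7.56 and 6.04 FPKM in KSPAPN. These 2 genes had log2 fold changes of -0.15 and -0.08, and *Psmc3ip* of -0.18 with a standard error of 0.28.

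The remaining 2 core genes did not pass the filter on low counts. *Psma8*, the testis form of an alpha subunit, had 1 to 9 counts per library, and *Psmb11*, the thymus form of *Psmb5*, had 0 to 2. The 31 core and cap genes that were tested had 806 to 4344 counts in every library.

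Levels of subunits that enter the particle in equal numbers were not equal. Mean FPKM over all 6 libraries ran from 20.7 for *Psmb7* to 125 for *Psmb5* in the core and from 12.8 for *Psmd11* to 75.2 for *Psmc5* in the cap. *Psmb5* ranked 308 of 13805 protein-coding genes tested and stood above 97.8% of them, and *Psmd11* stood above 74.3%. FPKM corrects for gene length as the authors set it, and how well it does so differs between genes.

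The groups also differed along the GC content of transcripts. Across 16004 genes tested the Pearson correlation of GC content with the log2 fold change was -0.20, and across the 31 core and cap genes it was -0.39. These are correlations across genes that share the same 6 libraries, and genes are not independent replicates. *Psmb5* with 56.6% GC and *Psmd3* with 55.4% GC had the lowest log2 fold changes, while *Psmc6* with 37.0% GC lay at 0. *Psmb7* with 40.8% and *Psmd11* with 39.9% departed from that order. Among others that did so, *Psma7* had the highest GC content of the 31 genes, 57.4%, with a log2 fold change of -0.15. *Psmd4* with 52.8% GC lay at -0.06.

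**Figure D4:**
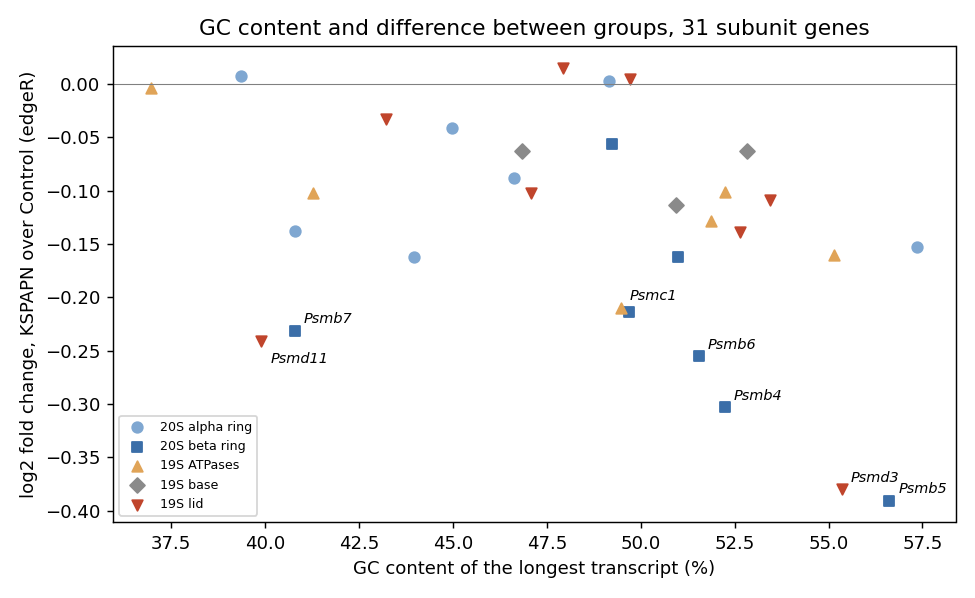
GC content of the longest transcript (horizontal axis, percent) against the log2 fold change of KSPAPN over Control (vertical axis, edgeR) for the 31 core and cap genes tested, with a mark for each part of the particle. *Psmb5* and *Psmd3* lie at the lower right with 56.6% and 55.4% GC, and *Psmb7* and *Psmd11* lie low at 40.8% and 39.9% GC.

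With a trend against GC content and length removed from each library, the median of the core went from -0.16 to -0.07 and that of the cap from -0.10 to 0.00050, while the median of all genes went from 0.01 to 0.04. On that scale 8 of 14 core genes and 8 of 17 cap genes were below 0, so the shared sign of the cap was no longer present. An unadjusted p under 0.05 was then reached by 5 of 35 members as lower (14.3%), against 9.16% of all genes. Of these 5, 3 were among the 6 of the uncorrected fit. The 5 were *Psmd11* (-0.32), *Psmb7* (-0.29), *Psmd3* (-0.27), *Psma3* (-0.19) and *Psmc2* (-0.18). *Psmb5* stood at -0.17 with an unadjusted p of 0.0703 and an adjusted p of 0.320 in edgeR with this correction. *Psmd3*, *Psmd11* and *Psmb7* were the members with an unadjusted p under 0.05 in both fits.

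Scaling by total counts alone shifted all genes upward, to a median of 0.08. The core then had a median of -0.09 with 10 of 14 below 0, and the cap -0.03 with 11 of 17 below 0. Relative to the median of all genes, the beta ring stood at -0.24 with TMM and at -0.24 with total counts. After the GC and length correction it stood at -0.12.

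**Figure D5:**
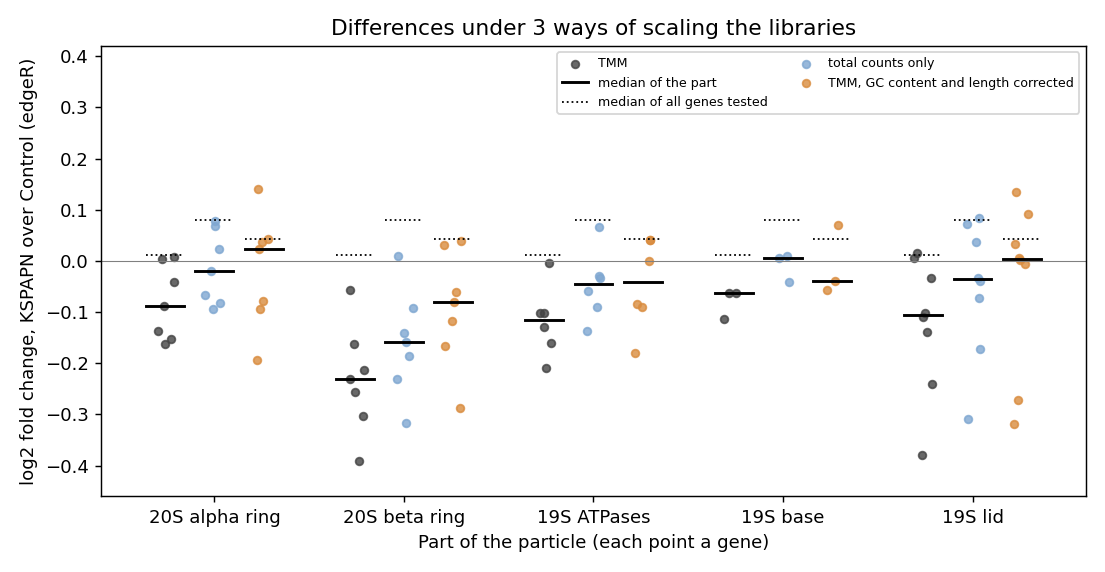
log2 fold change of KSPAPN over Control (vertical axis, edgeR) of each core and cap gene tested, with libraries scaled by TMM, by total counts alone, or by TMM after removal of a GC content and length trend. Solid bars give the median of the part and dotted bars the median of all genes tested (0.01, 0.08 and 0.04). The beta ring median goes from -0.23 to -0.16 and -0.08, and the lid median from -0.11 to -0.04 and 0.0037.

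Some kidney cell markers differed between the groups. Of 12 proximal tubule markers, 10 were below 0 with a median log2 fold change of -0.24. Of the 12, 3 transporters fell at an adjusted p under 0.05 in edgeR, against 2.25% of all genes as lower. They were *Slc22a7* (-1.68), *Slc7a13* (-1.46) and *Slc22a6* (-0.46). The summed level of the 12 was 2741 to 3212 FPKM in Control and 2322 to 2432 FPKM in KSPAPN. Of 11 markers of medulla and distal nephron, 6 were above 0, and *Slc12a1*, the salt transporter of the thick ascending limb, rose by 0.52 (edgeR, adjusted p = 0.0437). In 3 of the 11 (27.3%) the log2 fold change was below 0 at an unadjusted p under 0.05 in edgeR, against 11.2% of all genes. None of the 3 was past the adjusted threshold in edgeR. These were *Slc4a1* of intercalated cells (-0.71, adjusted p = 0.0893 in edgeR and 0.0137 in DESeq2), *Slc12a3* of the distal convoluted tubule (-0.36, adjusted p = 0.207 in edgeR) and *Aqp3* of the collecting duct (-0.32, adjusted p = 0.196 in edgeR). *Umod*, made like *Slc12a1* in the thick ascending limb, had -0.04. The sum of the 11 was 1421 to 1619.8 FPKM in Control and 1377 to 1917 FPKM in KSPAPN. All 6 glomerular markers were above 0 with a median of 0.32, none past the adjusted threshold, and a sum of 39.6 to 60.6 against 56.6 to 78.2 FPKM. The part of these markers in the proteasome values was not tested.

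Of 11 leukocyte markers, 6 passed the filter on low counts, none passed the test, and the sum was 27.3 to 32.2 FPKM in Control and 26.1 to 37.8 FPKM in KSPAPN. Of 4 adipocyte markers, 2 passed the filter, *Lep* was at 0 FPKM in 5 of 6 libraries, and the sum was at most 1.603 FPKM. Of 6 hepatocyte markers, 3 passed the filter, and *Ttr*, which the kidney also expresses, fell by 1.17 on the log2 scale (edgeR, adjusted p = 0.0388). The hepatocyte sum, most of it *Ttr*, was 71.7 to 149 FPKM in Control and 44.0 to 69.0 FPKM in KSPAPN. Of the 3 tested, *Apoa1* was also below 0 (-0.38), while *Alb* was above 0 (0.55, edgeR, adjusted p = 0.716). *Alb* had 2.56, 2.46 and 1.14 FPKM in Control and 0.275, 4.46 and 4.39 FPKM in KSPAPN. *Cps1* and *Cyp3a11*, which did not pass the filter, had 0 counts in each Control library. In KSPAPN *Cps1* had 1, 14 and 31 counts and *Cyp3a11* had 0, 4 and 10.

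The immunoproteasome replaces the catalytic subunits under interferon. *Psmb8* had 2.68, 1.496 and 2.62 FPKM in Control and 2.59, 1.96 and 2.22 FPKM in KSPAPN, far below its counterpart *Psmb5*. Its share of the sum of *Psmb5* and *Psmb8* was 1.85%, 1.05% and 1.82% in Control and 2.02%, 1.92% and 2.24% in KSPAPN. All KSPAPN shares lay above the Control shares, while the levels of *Psmb8* itself overlapped, and the 2-sided exact permutation test gave p = 0.10, the smallest that 3 against 3 allows (0.30 adjusted over 3 shares). The share of *Psmb9* was 2.52% ± 0.803 in Control and 2.76% ± 0.330 in KSPAPN (SD, n = 3; exact permutation p = 0.60, adjusted 0.70). That of *Psmb10* was 22.1% ± 3.80 and 23.1% ± 5.25 (SD, n = 3; exact permutation p = 0.70, adjusted 0.70). None of these 3 genes, nor *Psme1* and *Psme2* of the interferon-induced activator, passed an unadjusted p of 0.05, and their log2 fold changes ran from -0.12 for *Psmb10* to 0.0027 for *Psmb8*.

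The 19S subunits with other symbols were in the range of the cap. *Sem1* had 16.3, 16.6 and 17.03 FPKM in Control and 14.1, 14.0 and 15.2 FPKM in KSPAPN, without overlap, and a log2 fold change of -0.20 (edgeR, adjusted p = 0.243). *Adrm1*, a ubiquitin receptor, had -0.27 (adjusted p = 0.303), and its groups overlapped. All 5 chaperones that build the 20S core were below 0 (4 with total counts and 4 after the GC and length correction), from -0.45 for *Psmg3* to -0.03 for *Pomp*, with a median of -0.23, and none had an unadjusted p under 0.05. After the GC and length correction their median was -0.03. Of the activators *Psme3* and *Psme4* and the inhibitor *Psmf1*, the highest was *Psme4* (0.15) and the lowest *Psmf1* (-0.16), with none past the test.

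Of 5 genes that control transcription of the subunits, 4 were above 0, with a median log2 fold change of 0.07 and none past the adjusted threshold (4 above 0 with total counts, 3 after the GC and length correction). *Nfe2l1*, a factor for the element shown above in the *Psmb5* and *Psmb6* promoters, had 44.3, 43.4 and 46.8 FPKM in Control and 51.4, 49.0 and 49.1 FPKM in KSPAPN, all KSPAPN libraries above all Control libraries, with a log2 fold change of 0.16 and a standard error of 0.09 (edgeR, adjusted p = 0.356). *Nfe2l2* had 20.3, 23.7 and 23.2 FPKM in Control and 23.9, 25.5 and 24.2 FPKM in KSPAPN, and a log2 fold change of 0.13 (edgeR, adjusted p = 0.469). Its groups did not overlap, but only nominally, with the closest libraries at 23.74 FPKM in Control and 23.86 FPKM in KSPAPN. *Ddi2*, the protease that cuts NFE2L1 into its active form, had the lowest value, -0.23 (edgeR, adjusted p = 0.218). Its levels were 15.4, 14.9 and 13.2 FPKM in Control and 12.3, 12.9 and 11.8 FPKM in KSPAPN. Of the 5 genes, 2 had all KSPAPN libraries above Control, against 10.8% of all genes. In 1, *Ddi2*, all KSPAPN libraries lay below Control, against 13.5% of all genes. *Ngly1* and *Vcp*, which act on NFE2L1 before that cut, had 0.07 and 0.01.

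Ubiquitin, the tag itself, was followed through *Rps27a* and *Ubb*. *Rps27a*, which codes for ubiquitin fused to a ribosomal protein, had 82.3, 91.7 and 89.3 FPKM in Control and 75.7, 70.8 and 70.8 FPKM in KSPAPN. The groups did not overlap, and the log2 fold change was -0.27 with a standard error of 0.09 (edgeR, adjusted p = 0.135). *Ubb*, a polyubiquitin gene, had 382, 355 and 329.8 FPKM in Control and 319, 335 and 311 FPKM in KSPAPN, a log2 fold change of -0.14 (edgeR, adjusted p = 0.471), and its groups overlapped.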

How the data were processed

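The authors sequenced mRNA selected with oligo(dT) and deposited whole-read counts per gene, without normalization, together with FPKM per gene for the same 6 libraries. The submitters' processing notes name STAR 2.5, TopHat, HTSeq 0.6.1, DESeq2 and edgeR, with no role or order. Genome build, annotation and strand handling of the counts: not given in the sources used here. Hence reads of overlapping genes on opposite strands may not be told apart.

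Ensembl identifiers were looked up in GENCODE M21 (GRCm38) for symbols, biotypes and overlaps, and 54495 of 54532 genes matched. Promoter windows came from RefSeq (GRCm38.p6). Counts as deposited were fitted in edgeR 4.0.16 (R 4.3.3) with TMM factors and the 2-sided quasi-likelihood test, after the default filter (count of at least 10, total of at least 15), and Benjamini-Hochberg adjustment over 16017 genes. FPKM as the authors deposited them served for levels. Groups came from the sample labels. Single shares were compared with exact permutation tests. Genome-wide correlations used the GC content and length of the longest transcript, and the correction removed a natural spline trend (5 df) estimated from genes above 3 on the log2 CPM scale. Alternatives were DESeq2 1.42.0, limma 3.58.1 on log2(FPKM + 1) and log2(FPKM + 0.1), RLE factors, total counts, TMM without mitochondrial genes and *Adipoq*, no filter, a replicate block and each library left out. Python 3.11.15 with pandas 2.3.3, scipy 1.17.1 and matplotlib 3.10.9 handled tables and plots.

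The fits were tested on simulated data made from these 16017 genes. edgeR found 90% of the 2-fold and 100% of the 4-fold changes at a false share of 5.94%, and DESeq2 92% and 100% at 10.7%. Intervals were not computed for counts, and reads carried no molecular identifiers. Every member is counted under its role, and those not named are covered by ranges and counts. Values in every library are given for the catalytic subunits, the 3 lowest and 3 highest log2 fold changes of core and cap, and the assembly chaperones. For members not tested the range of counts is given. In other lists the members past the test, or else the lowest and highest, are named, and *Nfe2l1*, *Nfe2l2*, *Psmb8*, *Sem1*, *Rps27a*, *Ubb*, *Ubqln2*, *B2m* and a few others were given in full after their values were seen. The members and lists were chosen with earlier results of these data known. Some members of the ubiquitin and shuttle factor lists are not reported here. The study's other experiments were not analysed here.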

Additional observations from a re-analysis of the deposited data

How the results depend on the processing

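The median of the core stayed below 0 in all 16 alternatives and that of the cap in 15 of 17. With the GC content and length correction the medians were -0.070 and 0.00050, and with the replicate block and the same correction -0.070 and 0.00044. Leaving out single libraries, they ranged from -0.20 to -0.10 for the core and from -0.15 to -0.05 for the cap. Members lower at an adjusted p under 0.05, 0 in the edgeR fit, were 2 with DESeq2, 2 without a filter on low counts and 2 with the replicate block, *Psmb5* and *Psmd3* each time, and 0 to 3 with a library left out. These are 5.71%, 5.41% and 5.71% of the members tested, against 4.76%, 3.53% and 4.4% of all genes lower in the same fits. Without KSPAPN replicate 1 the 3 were *Psmb4*, *Psmb5* and *Psmd3*, or 8.57% against 3.47% of all genes. Members lower at an unadjusted p under 0.05, 6 in the edgeR fit, were 2 with total counts (*Psmb5* and *Psmd3*, 5.71% against 7.65% of all genes). They were 9 with the replicate block (25.7% against 13.7% of all genes), which added *Psma1*, *Psmb3* and *Psmc1*. With a library left out they were 3 to 6, or 8.57% to 17.1% of the members against 7.93% to 12.2% of all genes. No alternative gave a member higher at either threshold.

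Genes of all kinds past the adjusted threshold numbered 424 in the edgeR fit, 975 with DESeq2, 1339 without a filter, 929 with the block, 266 with total counts, 128 and 119 with limma at pseudocounts of 1 and 0.1, and 39 (without Control replicate 1) to 733 (without KSPAPN replicate 1) with a library left out. The deviations of same-numbered libraries correlated at 0.054, 0.154 and 0.173, and every library correlated best with its own number. The edgeR fit did not take the numbers as pairs, while the fit with the replicate block did. Whether the numbers mark pairs was not tested. The cause of the differences between the fits was not tested either. The simulation covered changes of 2-fold and 4-fold, larger than that of any member, and the exact test of a single value cannot go below 0.10.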

Other observations

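The shuttle factor *Ubqln2*, which carries tagged proteins to the particle, had 11.8, 11.7 and 12.4 FPKM in Control and 11.6, 9.21 and 9.49 FPKM in KSPAPN, with a log2 fold change of -0.24 (edgeR, adjusted p = 0.304). The separation of its groups is nominal, with the closest libraries at 11.67 FPKM in Control and 11.61 FPKM in KSPAPN. It was 1 of 7 shuttle factors and VCP partners (14.3%) with all KSPAPN libraries below Control, against 13.5% of all genes. *Rad23b*, another shuttle factor, had 0.0013, and its groups overlapped. Of 6 proteasome-associated genes, 3 were below 0. The deubiquitinase *Uchl5* had 6.54, 7.90 and 7.79 FPKM in Control and 7.67, 10.3 and 9.66 FPKM in KSPAPN, a log2 fold change of 0.32 (edgeR, adjusted p = 0.252), and *Txnl1* had the lowest value, -0.09. Of the enzymes that activate ubiquitin, *Uba1* had -0.01, and *Uba6* had 1.65, 2.46 and 1.86 FPKM in Control and 2.47, 2.62 and 2.73 FPKM in KSPAPN, a log2 fold change of 0.40 (edgeR, adjusted p = 0.210).

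Of 10 interferon targets, 7 were above 0, from *Irf7* (-0.20) to *Isg15* (0.53), with a median of 0.13, and none passed an adjusted p of 0.05 in edgeR. *B2m*, the light chain of MHC class I, which presents peptides made by the proteasome, had 201, 198 and 245 FPKM in Control and 297, 250.3 and 279 FPKM in KSPAPN, without overlap. It was 1 of the 10 targets with all KSPAPN libraries above Control, against 10.8% of all genes. Its log2 fold change was 0.37 with a standard error of 0.11 (edgeR, adjusted p = 0.120), and DESeq2 gave an adjusted p of 0.0455. The heavy chain genes *H2-K1* and *H2-D1* had 0.0019 and -0.15, and their groups overlapped.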
